A study of Mus musculus with 36 samples.

Results

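The genes described here are membrane carriers of amino acids and neurotransmitters: all members of the solute carrier families Slc1, Slc3, Slc6, Slc7, Slc36, Slc38 and Slc43 in the deposited expression tables, without the glial glutamate transporters Slc1a2 and Slc1a3. They were chosen by gene symbol, with earlier results of these data known, and 45 of the 19426 genes in either table qualified. The table of embryonic stem cells (ESCs) held 41 of them among 17036 genes, and the table of neural stem cells (NSCs) held 40 among 17771, with 36 in both. Slc6a14, Slc7a9, Slc6a16, Slc6a5 and Slc6a7 were listed for ESCs only, and Slc7a14, Slc7a10, Slc6a4 and Slc3a1 for NSCs only.

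The study asks what TET enzymes, which oxidize 5-methylcytosine in DNA, do as mouse ESCs are turned into NSCs. RNA-seq covered 4 groups: wildtype (WT) ESCs, ESCs with a triple knockout of the Tet genes (TKO), and NSCs differentiated from each, each cell type having 3 WT lines and 2 TKO lines. All were male V6.5 cells of a mixed 129/C57BL/6 strain, and the study calls the lines independent. ESCs were freed of feeder cells by plating for 45 minutes and grown in serum and LIF on gelatin for 24 hours. NSCs were taken at day 6 of culture, after passage 1. No group carries a transgene or a drug treatment in the labels, and with 2 lines in an arm a change shared by the TKO lines cannot be told apart from a property of those clones. Promoter contacts came from 1 WT and 1 TKO NSC library of promoter capture Hi-C.

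Amino acid carriers set which amino acids a cell can take up, exchange or recycle from lysosomes. Some run on the sodium gradient, some on protons, and the heteromeric ones trade an amino acid inside for another outside and need a heavy chain, Slc3a2 or Slc3a1, to reach the membrane. In the nervous system, related carriers of the Slc1 and Slc6 families end transmission by clearing glutamate, GABA, glycine or serotonin, while others supply creatine, taurine, glutamine and cystine.

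Values are normalized counts, that is, read counts per gene divided by a library size factor, and they are not corrected for gene length, so that they rank samples and not genes. Log2 fold changes (TKO over WT unless stated) are on the scale of log2(value + 1), with the adjusted p of limma over all genes tested, and a gene is called at an adjusted p under 0.05. Libraries held 41.0 M to 49.1 M reads. Transcripts of the knocked-out genes were still counted. In TKO ESCs the changes were -1.17 for Tet1, -0.56 for Tet2 and -1.23 for Tet3, and in TKO NSCs -0.47, 0.14 and -0.73, of which that of Tet2 was not called (adjusted p = 0.46). Genes of 3 chromosome regions were shifted in median in TKO lines. The medians over genes were 0.25 and 0.53 on chromosome 11 and 0.54 and 0.47 on distal chromosome 6 in the 2 TKO ESC lines, and -0.40 and -0.42 on chromosome 8. In the TKO NSC lines they were 0.53 and 0.54, 0.50 and 0.53, and -0.01 and -0.05 in the same order. For named members called in a cell type where their region was shifted, changes with the chromosome's median removed are given too. Cell type markers moved too. The summed level of 10 NSC markers was 402860 to 414280 in WT NSCs and 201810 to 212830 in TKO NSCs, with 8 of the 10 lower, among them Pax6 (-4.33, adjusted p = 2e-06). The 10 ESC markers summed to 1214 to 1461 in WT NSCs and 3256 to 6018 in TKO NSCs, with 5 called higher, and 9 endoderm and epithelium markers to 3260 to 3860 and 6767 to 10381, with 4 higher and Cdx2 at 0 in 2 WT libraries. Summed neuron markers were 18247 to 21995 in WT NSCs and 16856 to 17214 in TKO NSCs, and astroglia markers 28099 to 28341 and 18949 to 20641, with 4 and 6 of 10 lower and 1 of each list higher. Fibroblast markers overlapped in sum, with 8 of 10 higher and 2 lower. Oligodendroglia markers summed to 2675 to 3902 in WT NSCs and 1413 to 1426 in TKO NSCs. Of the 7 measured, 2 were lower, Olig2 (-5.22, adjusted p = 1.1e-06) and Olig1 (-2.68, adjusted p = 1.9e-06). The other 5 were not called, and the median change over the 7 was 0.23. Endothelium and blood markers, of which 3 of 8 were measured, summed to 1851 to 2255 and 376 to 529. Most of that sum was Kdr, at 2147, 1800 and 1766 in WT NSCs and 259 and 424 in TKO NSCs (-2.51, adjusted p = 1.6e-06). Pecam1, on chromosome 11, was higher (1.89, adjusted p = 0.015), and stood at 1.38 with the chromosome median removed (adjusted p = 0.078). In ESCs the sums were 201500 to 221510 in WT and 236900 to 266250 in TKO for ESC markers (5 higher, 1 lower), 45869 to 49866 and 38424 to 39582 for endoderm and epithelium (4 lower), 14742 to 15908 and 12349 to 13365 for neurons (2 lower), and 2009 to 2241 and 2930 to 3987 for endothelium and blood (1 higher). The endothelium and blood sum in ESCs covered 4 of 8 markers and was mostly Pecam1, which rose by 0.72 (adjusted p = 0.00094). With the chromosome median removed this was 0.35 (adjusted p = 0.051). NSC markers in ESCs summed to 33329 to 36254 in WT and 38759 to 39999 in TKO (2 higher, 2 lower). Astroglia markers there summed to 14799 to 15413 and 13853 to 14380 (1 higher, 0 lower). Oligodendroglia markers summed to 2555 to 2922.5 and 2254 to 2532, with 0 called. Fibroblast sums overlapped in ESCs, also with 0 called. The part of these marker changes in the results below was not tested, and in bulk RNA fewer cells of a type and less RNA per cell cannot be told apart.

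Fewer carriers were called in ESCs than in NSCs. In ESCs, 3 of 41 members were higher in TKO, against 7.29% of all genes tested, and 5 were lower, against 7.02%. In NSCs, 14 of 40 were higher, against 18.2% of all genes, and 9 were lower, against 19.5%. The median log2 fold change over the members was 0.05 in ESCs and -0.07 in NSCs, next to 0.01 over all genes in each cell type. Among the members, the NSC changes ran from that of Slc38a5, a glutamine carrier, to that of Slc43a3, a purine carrier.

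**Figure D1:**
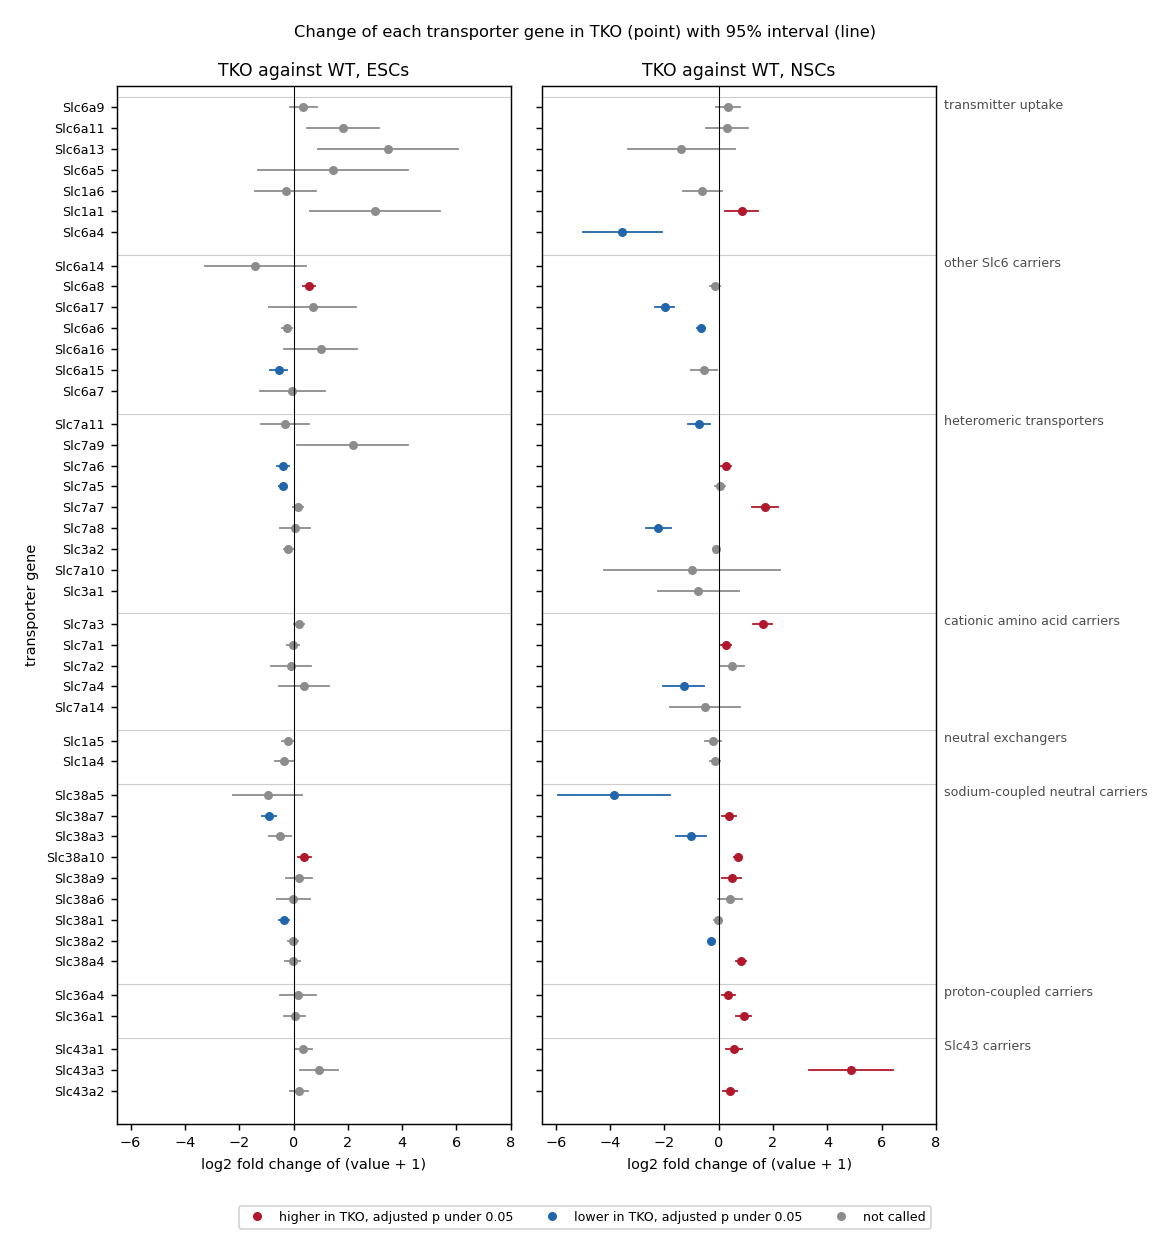
Log2 fold change of carrier genes in TKO against WT (points) with its 95% interval (lines) in ESCs (left) and NSCs (right), grouped by role. Red and blue points are genes called higher and lower in TKO, and grey points are not called. NSCs hold more coloured points than ESCs.

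Transmitter uptake was represented by 8 genes. Slc6a11, a GABA carrier best known from astrocytes, lies on distal chromosome 6. In ESCs it read 22.9, 10.1 and 16.1 in WT and 52.4 and 61.5 in TKO. The groups did not overlap, but the change missed the threshold (1.81 ± 0.63 (SE), adjusted p = 0.065), and with the chromosome median removed the change was 1.30 (adjusted p = 0.25). DESeq2, a pseudocount of 5 and a fit of all 10 libraries called it higher, with a lowest adjusted p of 0.014. Slc6a13, a GABA and taurine carrier of the meninges and liver, was close to the detection limit, at 9.54, 0 and 2.01 in WT ESCs and 29.3 and 40.4 in TKO ESCs. It was not called in ESCs (3.48 ± 1.22 (SE), adjusted p = 0.069) or in NSCs (-1.37 ± 0.90 (SE), adjusted p = 0.26), where WT lines held 18.6, 17.3 and 11.7 and TKO lines 12.9 and 1.95. It also lies on distal chromosome 6, and with the median removed the changes were 2.98 (adjusted p = 0.17) and -1.87 (adjusted p = 0.15).

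Slc6a4, the serotonin transporter, was listed for NSCs only. WT lines held 49.6, 58.5 and 44.7, and TKO lines 5.51 and 1.95, which comes to 148 reads over 3 WT and 8 reads over 2 TKO libraries. All WT lines lay above the TKO lines, and the gene fell (-3.56 ± 0.66 (SE), adjusted p = 0.0013). It lies on chromosome 11, where most genes were higher in TKO, and the change without the chromosome median was -4.07. Slc1a1, the glutamate and cysteine transporter of neurons, stood at 302, 396 and 432 in WT NSCs and 456 and 987 in TKO NSCs. It rose by 0.85 ± 0.28 (SE), adjusted p = 0.033, but TKO replicate 2 was the high line. Without TKO replicate 2 the change was 0.29, adjusted p = 0.42, without TKO replicate 1 it was 1.4, adjusted p = 0.003, and the call was also lost without WT replicate 1 (0.69, adjusted p = 0.14) or WT replicate 2 (0.89, adjusted p = 0.077), with a robust fit, and with all 10 libraries in 1 fit (adjusted p = 0.47). In ESCs Slc1a1 was near the detection limit, with WT lines reading 8.58, 0 and 12.1 and TKO lines reading 36.7 and 42.3, without overlap and without a call (3.01 ± 1.13 (SE), adjusted p = 0.088), although a pseudocount of 5 and the fit of all 10 libraries called it higher, as they did Slc6a13 in ESCs. The glycine transporter Slc6a9, the glutamate transporter Slc1a6 and the spinal glycine transporter Slc6a5 were not called in any cell type that lists them, with changes of 0.36, -0.28 and 1.45 in ESCs.

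The other Slc6 carriers bring in creatine, taurine and neutral amino acids, and 2 of the 4 listed for NSCs fell, against 19.5% of all genes. Slc6a17, which loads neutral amino acids into synaptic vesicles, stood at 687, 735 and 762 in WT NSCs and 200.2 and 168 in TKO NSCs. The groups were well apart, and the change was -1.98 ± 0.16 (SE), adjusted p = 3.2e-06. In ESCs it was low in both genotypes, at 13.4, 18.1 and 11.1 and 31.4 and 17.3, with overlapping groups. Slc6a6, the taurine transporter, stood at 14852, 16202 and 14520 in WT NSCs and 9120.3 and 10027 in TKO NSCs. All WT lines lay above the TKO lines, and the gene fell by a smaller amount (-0.67 ± 0.07 (SE), adjusted p = 1.9e-05). In ESCs its values were 7628, 6959 and 6356 against 5929.7 and 5875, in the same order but not called (-0.24 ± 0.09 (SE), adjusted p = 0.097). The gene lies 219.8 kb on the proximal side of the step found on chromosome 6.

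Slc6a8, the creatine transporter, was called in ESCs and not in NSCs. ESC values were 1779.8, 1802 and 1704 in WT and 2706 and 2541 in TKO. The TKO lines were higher without overlap (0.57 ± 0.10 (SE), adjusted p = 0.0015). NSC values overlapped, and the change was -0.13 ± 0.08 (SE), adjusted p = 0.25. Slc6a15, a carrier of branched-chain amino acids and proline in neurons, fell in ESCs (-0.55 ± 0.15 (SE), adjusted p = 0.019), a call lost without WT replicate 2, WT replicate 3 or either TKO replicate (adjusted p 0.058 to 0.12) and in the fit of all 10 libraries. In NSCs its change was -0.54 (adjusted p = 0.068), with TKO lines at 542 and 1033. Slc6a14, Slc6a16 and the proline transporter Slc6a7, listed for ESCs only and at most 61.5 in any library, were not called.

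Of the 8 heteromeric transporter genes listed for NSCs, 2 were higher, 2 lower and 4 not called, next to 18.2% of all genes higher and 19.5% lower. Slc7a7 and Slc7a8 are light chains on chromosome 14, whose annotated spans lie 302.1 kb apart. Slc7a7 exports cationic amino acids in exchange for neutral ones with sodium, and Slc7a8 exchanges neutral amino acids. Slc7a7 stood at 195, 212 and 216 in WT NSCs and at 861 and 532 in TKO NSCs. Both TKO lines exceeded all WT lines, and the gene rose by 1.70 ± 0.22 (SE), adjusted p = 8.9e-05. Slc7a8 went the other way, from 598, 537 and 416 in WT to 112 and 105 in TKO. Its groups did not overlap either, and it fell (-2.22 ± 0.21 (SE), adjusted p = 1.1e-05). In ESCs neither was called, with Slc7a7 at 4563, 4434 and 4236 against 5004 and 4945 and Slc7a8 at 151, 149 and 185 against 154 and 183. Slc7a7 overlaps Oxa1l by 228 bases, and the sources used here do not say if counting used the strand. Oxa1l itself was not called in NSCs (0.15, adjusted p = 0.11).

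The promoter windows of the neighbours that moved apart are shown with those of Slc38a4 and Slc6a17, described in their own groups, because these carriers were called in TKO NSCs and TET enzymes act on cytosines that precede guanine. Each window runs from 250 bases before to 50 bases after the outermost start in the RefSeq promoter table (GRCm38.p6), is written 5′ to 3′ on the gene's minus strand, and has each CG in capitals. For Slc7a7 the annotated gene reaches 2124 bases further upstream than that start, so the window need not hold the promoter in use, while for the other 3 the start used is the annotated end of the gene. No methylation was analysed here.
Slc7a7, higher in TKO NSCs, chr14:54417895-54418194: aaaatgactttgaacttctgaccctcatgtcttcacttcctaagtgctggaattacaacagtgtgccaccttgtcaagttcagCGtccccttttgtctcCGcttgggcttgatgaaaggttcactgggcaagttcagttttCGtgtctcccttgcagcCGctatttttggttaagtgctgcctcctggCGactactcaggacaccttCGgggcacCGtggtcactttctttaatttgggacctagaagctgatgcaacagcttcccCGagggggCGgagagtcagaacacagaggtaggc
Slc38a4, higher in TKO NSCs, chr15:97055907-97056206: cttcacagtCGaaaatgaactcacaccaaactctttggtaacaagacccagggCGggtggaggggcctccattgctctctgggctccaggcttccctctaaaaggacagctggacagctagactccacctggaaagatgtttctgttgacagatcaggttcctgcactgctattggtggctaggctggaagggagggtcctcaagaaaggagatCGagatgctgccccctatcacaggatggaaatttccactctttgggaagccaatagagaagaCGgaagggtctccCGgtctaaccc
Slc7a8, lower in TKO NSCs, chr14:54781837-54782136: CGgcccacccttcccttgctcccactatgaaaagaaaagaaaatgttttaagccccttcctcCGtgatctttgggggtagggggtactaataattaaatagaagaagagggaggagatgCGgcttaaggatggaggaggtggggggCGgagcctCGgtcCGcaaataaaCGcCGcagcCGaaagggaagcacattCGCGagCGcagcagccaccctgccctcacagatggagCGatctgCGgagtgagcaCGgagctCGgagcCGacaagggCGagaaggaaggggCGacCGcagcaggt
Slc6a17, lower in TKO NSCs, chr3:107517969-107518268: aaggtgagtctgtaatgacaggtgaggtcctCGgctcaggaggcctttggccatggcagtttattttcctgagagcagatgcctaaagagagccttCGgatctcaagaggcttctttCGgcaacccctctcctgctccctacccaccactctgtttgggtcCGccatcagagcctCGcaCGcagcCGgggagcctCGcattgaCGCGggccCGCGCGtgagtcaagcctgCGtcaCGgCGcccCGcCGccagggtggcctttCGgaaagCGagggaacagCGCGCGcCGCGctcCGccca

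The windows hold 9 CG in Slc7a7 and 5 in Slc38a4, and 20 in Slc7a8 and 26 in Slc6a17. A window was matched for 32 of the 45, and its start lay inside the annotated gene for 15 of them, by 55474 bases for Slc7a11. The median was 19.5 CG over 12 members that were higher in TKO NSCs, 23 over 6 that were lower, and 19.5 over 10 that were not called, and the ranges, 5 to 41, 4 to 41 and 7 to 32, overlapped. Over all matched members it was 18.5, next to 7 over the 27025 genes with a window. Those include genes that neither expression table lists, while every member is listed, which limits this comparison and the next. The sequence TGATGNAA, searched on both strands as a form of the element that Atf4 binds under amino acid shortage, occurred in the windows of Slc7a11, Slc7a7 and Slc1a4, which is 9.38% of 32, next to 4.06% of all windows of that length.

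Slc7a11, the cystine and glutamate exchanger that feeds glutathione synthesis, fell in NSCs from 428, 370.2 and 390.4 to 216 and 269. The groups did not overlap (-0.71 ± 0.18 (SE), adjusted p = 0.01). Without TKO replicate 1 the change was -0.55, adjusted p = 0.084, and the call was also lost with all 10 libraries in 1 fit (adjusted p = 0.13). Slc7a5, the light chain that imports leucine and other large neutral amino acids, stood at 21891, 20486 and 21229 in WT ESCs and 16588 and 16003 in TKO ESCs. It fell without overlap (-0.38 ± 0.07 (SE), adjusted p = 0.0021). It lies on chromosome 8, and with the chromosome median removed the change was 0.04 (adjusted p = 0.74). In NSCs it read 7097, 7019 and 7184 and 8031 and 6624, with no call (0.04 ± 0.08 (SE), adjusted p = 0.74).

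Slc7a6, a relative of Slc7a7 on the same chromosome as Slc7a5, was lower in TKO ESCs (-0.38 ± 0.10 (SE), adjusted p = 0.016) and higher in TKO NSCs (0.28 ± 0.08 (SE), adjusted p = 0.021). The ESC value was 0.04 with the chromosome median removed (adjusted p = 0.84), and leaving out WT replicate 2 or either TKO replicate also ended that call (adjusted p 0.057 to 0.092). The NSC call was lost without WT replicate 1, WT replicate 2 or either TKO replicate (adjusted p 0.06 to 0.12). Slc3a2, the heavy chain shared by these light chains, held 16331, 17151 and 16943 in WT ESCs and 14385 and 15154 in TKO ESCs. In NSCs it held 7917, 7912 and 7737 and 7519 and 7194. TKO lines were below WT lines in both cell types, yet neither change was called (-0.19 ± 0.07 (SE), adjusted p = 0.11 in ESCs and -0.10 ± 0.06 (SE), adjusted p = 0.24 in NSCs). The kidney and gut pair Slc7a9 and Slc3a1 and the small neutral amino acid exchanger Slc7a10 stayed at or below 57.3 in every library that lists them and were not called. Slc7a9 read 1.91, 6.03 and 24.2 in WT ESCs and 31.4 and 39.4 in TKO ESCs, without overlap (2.18 ± 0.96 (SE), adjusted p = 0.15). A limma fit with the replicate number as a block called it higher (adjusted p = 0.047).

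Of the 5 cationic amino acid carriers listed for NSCs, which bring in arginine and lysine, 2 were higher and 1 lower. The shares of all genes were 18.2% and 19.5%. Slc7a3 held 317, 290.1 and 283 in WT NSCs and 1039.6 and 797 in TKO NSCs. The lines did not overlap, and the gene rose by 1.62 ± 0.16 (SE), adjusted p = 1.7e-05. ESCs held far more of it, 9045, 9375 and 10053 in WT and 10772 and 11112 in TKO, without a call (0.21 ± 0.08 (SE), adjusted p = 0.1). It overlaps Snx12 by 1086 bases, and Snx12 was not called in NSCs (-0.04, adjusted p = 0.77). Slc7a4, a family member whose substrate is not settled, fell in NSCs from 121, 112 and 122 to 38.6 and 58.5. The groups did not overlap (-1.30 ± 0.34 (SE), adjusted p = 0.011), but without TKO replicate 1 the change was -1.0, adjusted p = 0.08. Slc7a1, the widely expressed arginine carrier, rose a little (0.27 ± 0.08 (SE), adjusted p = 0.027), a call lost without any of the 3 WT replicates or TKO replicate 1 (adjusted p 0.051 to 0.18). Slc7a2 and the lysosomal Slc7a14 were not called in NSCs, at 0.50 and -0.51.

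**Figure D2:**
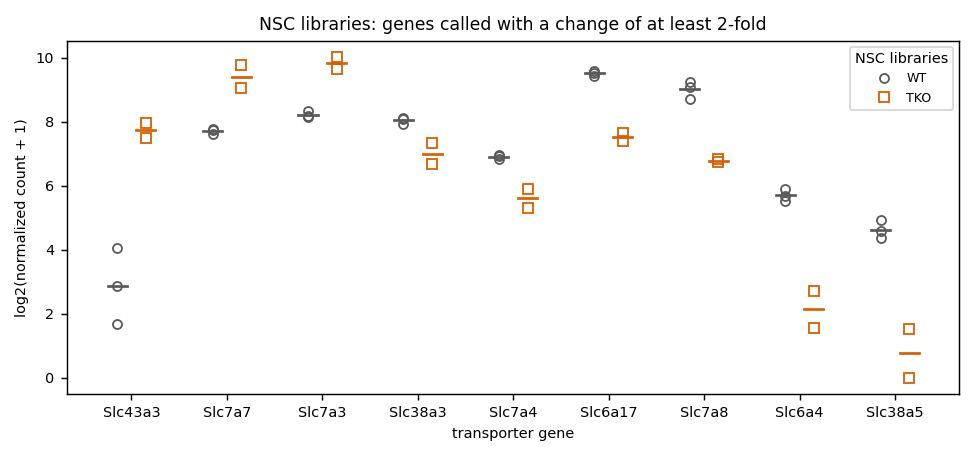
Normalized counts, as log2(value + 1), of the 9 carriers called in NSCs with a change of at least 1 on the log2 scale. Circles are the 3 WT lines, squares the 2 TKO lines and bars their means. In none of the 9 do the circles and squares overlap.

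The sodium-coupled neutral carriers of the Slc38 family move glutamine, alanine and related amino acids. Of these, 4 of 9 were higher and 3 lower in TKO NSCs, against 18.2% and 19.5% of all genes. Slc38a5, a glutamine carrier, held 22.7, 19.5 and 29.1 in WT NSCs and 1.84 and 0 in TKO NSCs. This amounts to 70 reads over 3 WT libraries and 2 over 2 TKO libraries, a ratio of 25.3 after scaling with a 95% counting interval of 6.75 to 213. If each read pair was counted as 2 reads, the interval is 4.26 to 1029. The limma call was lower in TKO (-3.86 ± 0.93 (SE), adjusted p = 0.007). In ESCs the groups overlapped, at 38.2, 58.3 and 32.2 and 12.6 and 34.6.

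Slc38a3, the glutamine carrier best known from liver, kidney and astrocytes, fell in NSCs from 242, 268 and 278 to 159 and 101. The TKO lines were both below WT (-1.04 ± 0.25 (SE), adjusted p = 0.0069), and without TKO replicate 2 the change was -0.72, adjusted p = 0.063. Slc38a4, an imprinted carrier of placenta and liver, stood at 3837, 3934 and 3260.5 in WT NSCs and 6255 and 6604 in TKO NSCs. It rose without overlap (0.81 ± 0.09 (SE), adjusted p = 2.4e-05). In ESCs the TKO lines, at 5692 and 8288, lay on either side of the WT lines, at 7578, 7132 and 6432.

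Slc38a4 shares a stretch of chromosome 15 with Slc38a1 and Slc38a2, and the 3 genes did not move together. Slc38a2, which cells raise under amino acid shortage, stood at 9392, 9849 and 10496 in WT NSCs and 8103 and 8346 in TKO NSCs. It fell slightly without overlap (-0.27 ± 0.06 (SE), adjusted p = 0.0069), and without TKO replicate 1 the change was -0.25, adjusted p = 0.062. In ESCs its values overlapped, at 28053, 24344 and 22953 and 24569 and 24880. Slc38a1, a glutamine carrier of neurons, held 7900.3, 7655 and 7468 in WT NSCs and 7191 and 7715 in TKO NSCs, where the groups overlapped. It fell in ESCs (-0.36 ± 0.09 (SE), adjusted p = 0.011), a call lost without WT replicate 2 or TKO replicate 1 (adjusted p 0.063 to 0.084).

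The lysosomal glutamine exporter Slc38a7 was the member with opposite calls in the 2 cell types beside Slc7a6. ESC values were 1878, 1708 and 1784 in WT and 1039 and 869 in TKO, and NSC values were 1095, 1261 and 1299.6 and 1695 and 1462. The TKO lines were below all WT lines in ESCs (-0.91 ± 0.12 (SE), adjusted p = 0.00015) and above them in NSCs (0.37 ± 0.11 (SE), adjusted p = 0.021). It lies on chromosome 8, and the ESC change without the chromosome median was -0.49 (adjusted p = 0.013). The NSC call was lost without WT replicate 1 (0.30, adjusted p = 0.083) or TKO replicate 1 (0.27, adjusted p = 0.18).

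Slc38a10 held 6454, 6751 and 6276 in WT NSCs and 10854 and 10376 in TKO NSCs. It rose without overlap in NSCs (0.71 ± 0.06 (SE), adjusted p = 6e-06) and in ESCs (0.40 ± 0.11 (SE), adjusted p = 0.018). The gene lies on chromosome 11, and with that chromosome's median removed the changes were 0.20 in NSCs (adjusted p = 0.034) and 0.03 in ESCs (adjusted p = 0.9). Without TKO replicate 2 the ESC change was 0.23, adjusted p = 0.31. Slc38a9, a lysosomal arginine sensor that signals to the growth kinase mTORC1, rose in NSCs by 0.48 ± 0.16 (SE), adjusted p = 0.032. Without TKO replicate 1 this was 0.27, adjusted p = 0.3, and the call was also lost without WT replicate 1 or WT replicate 3 (adjusted p 0.08 to 0.3 over the 3 omissions) and in the fit of all 10 libraries. Slc38a6 was not called (0.42 in NSCs).

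Both proton-coupled and all 3 Slc43 carriers were called higher in TKO NSCs by limma, next to 18.2% of all genes and, on chromosome 11 and distal 6, 58.4%; Slc36a1 and Slc43a2 lie on chromosome 11. In ESCs limma called 0 of 2 and 0 of 3, with 0 at an unadjusted p under 0.05, 0 by edgeR and 0 by DESeq2 for the proton-coupled carriers and 2 at an unadjusted p under 0.05, 0 by edgeR and 1 by DESeq2 for the Slc43 carriers. Slc36a1, which exports small amino acids from lysosomes, stood at 845, 881 and 717 in WT NSCs and 1418 and 1678 in TKO NSCs. It rose by 0.93 ± 0.13 (SE), adjusted p = 0.00015, and by 0.41 (adjusted p = 0.028) with the median of its chromosome 11 removed. Slc36a4 rose by 0.35 ± 0.11 (SE), adjusted p = 0.029, a call lost without WT replicate 1, WT replicate 2 or TKO replicate 2 (adjusted p 0.068 to 0.19) and in the fit of all 10 libraries.

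Slc43a3, a carrier of purine bases rather than of amino acids, had the highest fold change among the members in NSCs. It read 6.20, 2.17 and 15.5 in the WT NSC lines and 249 and 179.6 in the TKO lines. Both TKO lines were above all WT lines, and the change was 4.88 ± 0.71 (SE), adjusted p = 0.00023. In ESCs it read 91.6, 68.4 and 101 in WT and 136 and 199.9 in TKO, without overlap and without a call by limma (0.94 ± 0.33 (SE), adjusted p = 0.069), while DESeq2 called it higher. Slc43a1, a large neutral amino acid carrier whose span lies 72.96 kb from that of Slc43a3 on chromosome 2, rose less in NSCs (0.57 ± 0.13 (SE), adjusted p = 0.0054). Slc43a2, a related carrier on chromosome 11, rose by 0.42 ± 0.12 (SE), adjusted p = 0.015, but stood at -0.09 with the chromosome median removed (adjusted p = 0.6), and its call was also lost without WT replicate 1 or either TKO replicate (adjusted p 0.059 to 0.083).

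The neutral exchangers Slc1a5, which imports glutamine, and Slc1a4, which exchanges serine and alanine, were not called in either cell type. Slc1a4 is on chromosome 11, and with the chromosome median removed it was lower in TKO, at -0.74 in ESCs (adjusted p = 0.0024) and -0.66 in NSCs (adjusted p = 0.00012). Of the 11 members on chromosomes 8, 11 and distal 6, 2 were higher and 3 lower in TKO ESCs, where 24% of all genes on them were higher and 15.7% lower. Of the 8 on chromosome 11 and distal 6, the regions shifted in NSCs, 3 were higher and 1 lower in TKO NSCs, where 58.4% of genes were higher and 6.74% lower. Elsewhere 1 of 30 was higher and 2 lower in ESCs (4.8% and 5.82% of genes), and 11 of 32 were higher and 8 lower in NSCs (15.2% and 21.9% of genes).

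**Figure D3:**
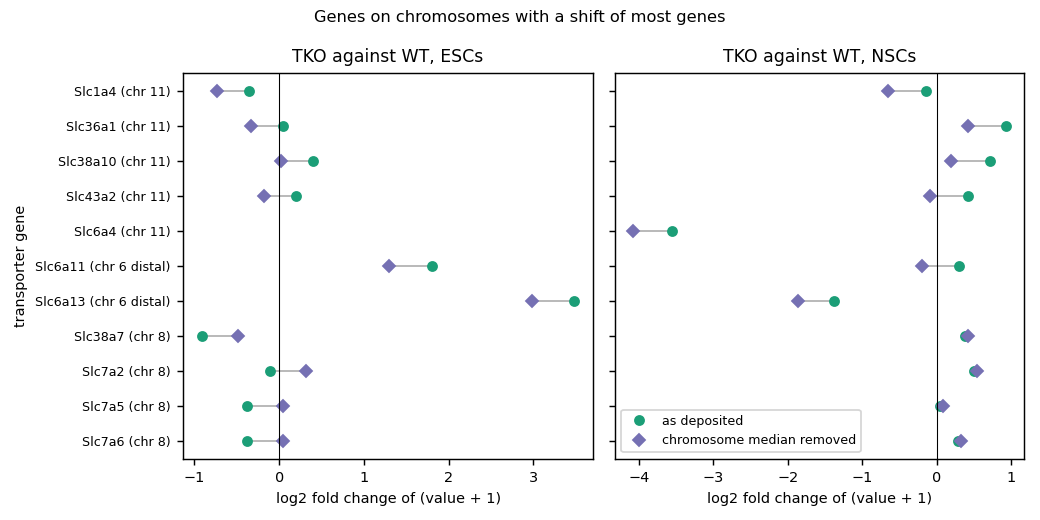
Log2 fold change in TKO of 11 members on chromosomes 8, 11 and distal 6, as deposited (green circles) and after removing each library's chromosome median (purple diamonds). In NSCs all 5 members on chromosome 11 move to lower values, and Slc36a1 and Slc38a10 stay above 0.

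Whether TKO and WT differed to another extent in NSCs than in ESCs was tested directly for the 36 members in both tables. The effect in NSCs minus that in ESCs was called above 0 for 9 members, against 10.9% of genes called. It was called below 0 for 6, against 9.81%. Each of the contrasts it is made of uses its own libraries. The members more positive in NSCs by at least 1 were Slc43a3 (3.94 ± 0.82 (SE), adjusted p = 0.0038), Slc7a7 (1.53 ± 0.22 (SE), adjusted p = 0.00025), Slc7a3 (1.41 ± 0.15 (SE), adjusted p = 2.6e-05) and Slc38a7 (1.28 ± 0.17 (SE), adjusted p = 0.00011). Slc38a7 lies on chromosome 8, and with chromosome medians removed its difference was 0.89 (adjusted p = 0.0012), below 1. Among those more negative by at least 1 were Slc6a17 (-2.69 ± 0.52 (SE), adjusted p = 0.0022), Slc7a8 (-2.28 ± 0.34 (SE), adjusted p = 0.00036) and Slc6a13 (-4.86 ± 1.47 (SE), adjusted p = 0.03). Of 6 transmitter uptake genes, which include Slc6a13, limma and edgeR each called 2 in this contrast and DESeq2 called 1. DESeq2 thus did not make at least 1 of the limma calls. The value of Slc6a13 rests on 12 reads in the WT and 70 in the TKO ESC libraries, and it was lost without either TKO ESC replicate, WT NSC replicate 1, WT NSC replicate 2 or TKO NSC replicate 2 (adjusted p 0.059 to 0.13).

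Smaller differences were called for Slc36a1, Slc38a4, Slc7a6, Slc7a5 and Slc38a1, from 0.32 to 0.88, and for Slc6a8 and Slc6a6, at -0.70 and -0.43. With chromosome medians removed, those of Slc7a6 and Slc7a5 were 0.27 and 0.03 (adjusted p = 0.12 and 0.87), and that of Slc36a1 was 0.74 (adjusted p = 0.035). Without TKO NSC replicate 1, Slc7a5 (0.28, adjusted p = 0.081) and Slc6a6 (-0.36, adjusted p = 0.09) lost their calls. The call of Slc38a1 was kept without WT ESC replicate 3 or TKO ESC replicate 2 and lost without any of the other libraries (adjusted p 0.053 to 0.15) and with edgeR. Slc36a1 lost it without WT ESC replicate 3, TKO ESC replicate 1, WT NSC replicate 3 or TKO NSC replicate 2 (adjusted p 0.052 to 0.11). Slc38a5 was not called by limma but was called lower by edgeR and DESeq2, with a limma 95% interval of -5.12 to -0.70 before adjustment (limma adjusted p = 0.061).

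To compare NSCs with ESCs, the reads of all 10 libraries were scaled together. These are the libraries of the TKO and WT comparisons above, so the results share samples with them. In WT, 14 of 36 members were higher in NSCs than in ESCs, against 37.8% of genes, and 14 were lower, against 37.5%. In TKO, 12 were higher, against 35.4%, and 13 lower, against 34.8%. The members' shares lie near those of all genes. Scaling to equal totals instead moved the median of all genes by 0.33 in WT and 0.39 in TKO. It gave 18 higher and 12 lower members in WT and 19 and 10 in TKO, with 7208 higher and 4544 lower genes in WT and 7069 and 3859 in TKO, where the joint scaling gave 5815 and 5769, and 5439 and 5359.

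Of the 6 transmitter uptake genes in both tables, 4 were higher in WT NSCs than in WT ESCs, next to 37.8% of all genes. Slc1a1 held 10.1, 0 and 14.0 on the joint scale in WT ESCs and 258, 338 and 368 in WT NSCs, a difference of 5.86 ± 0.75 (SE), adjusted p = 4.9e-06. Slc6a17, from the other Slc6 carriers, held 15.7, 21.1 and 12.9 and 587, 626 and 649.8 (5.17 ± 0.33 (SE), adjusted p = 2e-09). In both genes every NSC line lay above every ESC line.

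Slc7a3 went from 10609, 10914 and 11667 in WT ESCs to 271, 247 and 241 in WT NSCs (-5.45 ± 0.10 (SE), adjusted p = 8.3e-15). Slc7a7 went from 5352, 5162 and 4916 to 167, 181 and 184 (-4.85 ± 0.14 (SE), adjusted p = 5.9e-13). Slc43a3 went from 107, 79.6 and 117 to 5.29, 1.84 and 13.2 (-3.99 ± 0.51 (SE), adjusted p = 4.8e-06). No line of one cell type overlapped the other in these 3 genes. In TKO the members that differed by at least 3 were Slc1a1 (3.6 ± 0.92 (SE), adjusted p = 0.0029) and Slc36a4 (3.16 ± 0.20 (SE), adjusted p = 3.6e-09) upwards and Slc7a3 (-4.05 ± 0.12 (SE), adjusted p = 2.4e-12), Slc38a5 (-3.99 ± 0.78 (SE), adjusted p = 0.00036) and Slc7a7 (-3.34 ± 0.17 (SE), adjusted p = 3.7e-10) downwards.

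The genes that are high in ESCs and low in WT NSCs can be followed across the 4 groups. On the joint scale Slc7a3 stood at 880.3 and 671 in TKO NSCs, above the WT NSC lines and below all ESC lines. Slc7a7 stood at 729 and 447, in the same order. Slc43a3 stood at 211 and 151 in TKO NSCs, next to 159 and 231 in TKO ESCs, and the difference was not called (-0.10 ± 0.63 (SE), adjusted p = 0.89, 95% interval -1.45 to 1.24). Slc38a4 stood at 5297 and 5556, above WT NSCs at 3276, 3352 and 2779 and below the ESC lines. The ESC markers given above were also higher in these TKO NSC libraries, where the marker Utf1 rose by 3.45, adjusted p = 6.6e-06, and the part of that in these values was not tested.

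Among genes that WT NSCs gained, Slc7a8 fell below its ESC level in TKO. It held 177, 173 and 215 in WT ESCs, 511, 458 and 354 in WT NSCs and 94.9 and 88.7 in TKO NSCs, and TKO NSCs were lower than TKO ESCs (-1.08 ± 0.27 (SE), adjusted p = 0.0022). Slc6a17 held 169.5 and 141 in TKO NSCs, below all WT NSC lines and above all ESC lines.

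**Figure D4:**
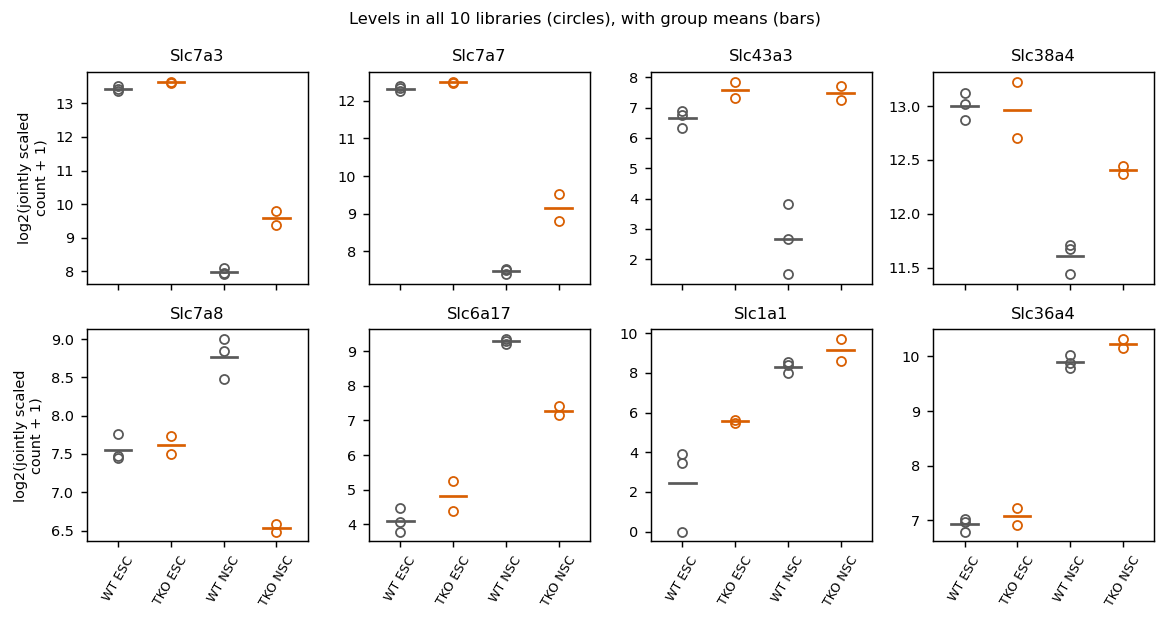
Levels of 8 carriers in all 10 libraries, as log2(jointly scaled count + 1), with WT in grey and TKO in orange and bars for group means; each panel has its own axis. Slc7a3, Slc7a7 and Slc38a4 fall less from ESCs to NSCs in TKO, and Slc7a8 and Slc6a17 reach lower NSC levels in TKO.

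Several calls between cell types rest on the scaling or on single libraries. Under equal totals, Slc43a1 and Slc38a1 in WT and Slc38a4, Slc7a4 and Slc6a13 in TKO were no longer called, while Slc6a9, Slc6a13, Slc38a10 and Slc38a9 in WT and Slc6a8, Slc6a9, Slc6a11, Slc1a6, Slc38a7, Slc7a6 and Slc38a1 in TKO were called higher. The value of Slc38a1 turned from -0.32 to 0.01 in WT. Leaving out a library ended the WT calls of Slc1a6 (without WT ESC replicate 2, WT NSC replicate 1 or WT NSC replicate 2, adjusted p 0.062 to 0.085) and Slc43a2 (without WT NSC replicate 2, 0.28, adjusted p = 0.075). In TKO it ended those of Slc6a13 and Slc6a6 without either TKO ESC replicate or TKO NSC replicate 2 (adjusted p 0.09 to 0.27 and 0.065 to 0.2), and those of Slc38a9 and Slc7a4 without replicate 1 of either TKO group (adjusted p 0.2 to 0.23 and 0.082 to 0.13). Slc36a1 lost its call without TKO ESC replicate 1 or TKO NSC replicate 2 (adjusted p 0.077 to 0.14), and Slc38a4 without TKO ESC replicate 2 (-0.30, adjusted p = 0.051). Slc38a10 kept its call at 0.30, adjusted p = 0.014 without TKO ESC replicate 1.

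Other genes of amino acid handling were counted from lists, to be read against the shares of all genes called, 7.29% higher and 7.02% lower in ESCs and 18.2% and 19.5% in NSCs. Of 20 genes that respond to amino acid shortage through Atf4, 9 were lower in TKO ESCs and 11 not called, while 10 were higher and 2 lower in TKO NSCs. This list holds carriers described above. The largest changes were Atf3 (-1.07, adjusted p = 0.0016) and Chac1 (-0.90, adjusted p = 0.002) in ESCs and Trib3 (2.08, adjusted p = 0.00048) and Chac1 (1.68, adjusted p = 0.00075) in NSCs. Their medians were -0.37 and 0.19, next to 0.01 over all genes in each cell type. Of 18 stress and RNA quality genes, some of them on that list, 1 was higher and 8 lower in TKO ESCs, and 4 were higher and 4 lower in TKO NSCs, and their part in the carriers' changes was not tested.

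Of 32 genes through which mTORC1 senses amino acids, 6 were higher and 4 lower in TKO ESCs, and 10 higher and 5 lower in TKO NSCs. Rragd, a GTPase of the lysosomal complex, fell in NSCs (-1.15, adjusted p = 2.3e-07), and the arginine sensor Castor1 rose in ESCs (0.78, adjusted p = 0.00017) and NSCs (0.91, adjusted p = 0.00083). Sec13, a subunit of a complex in this pathway, rose in ESCs (0.65, adjusted p = 0.00017), but is on distal chromosome 6 and stood at 0.15 with the median removed (adjusted p = 0.32). Castor1 is on chromosome 11, and with the median removed its change was 0.40 in ESCs (adjusted p = 0.013) and 0.40 in NSCs (adjusted p = 0.089). Of 17 genes of transmitter synthesis and breakdown, 1 was higher and 3 lower in ESCs, with Gad1, which makes GABA, lower (-1.82, adjusted p = 0.00028), and 5 were higher and 5 lower in NSCs, with Gad2 higher (1.39, adjusted p = 0.00043). Ddc, which makes dopamine and serotonin, was higher in both (1.07, adjusted p = 0.00066 in ESCs and 1.30, adjusted p = 0.0011 in NSCs), and lies on chromosome 11, without whose median it stood at 0.69 and 0.79. Limma called 0 of 7 vesicular transmitter transporters in ESCs (0 at an unadjusted p under 0.05, 0 by edgeR and 0 by DESeq2). Of 9 in NSCs, Slc18a3, which loads acetylcholine, was higher (3.25, adjusted p = 0.042) and Slc17a6, which loads glutamate, was lower (-1.81, adjusted p = 0.0016). Slc18a3 was near the detection limit, at 0, 4.33 and 1.94 in WT NSCs and 33.1 and 15.6 in TKO NSCs.

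Creatine and taurine synthesis had 2 of 7 genes higher in ESCs, and 3 higher and 2 lower in NSCs. In ESCs these were Cdo1, which starts taurine synthesis (1.28, adjusted p = 0.0012), and the creatine kinase Ckmt1 (0.97, adjusted p = 0.0009). The creatine kinases moved apart in NSCs: the mitochondrial Ckmt1 rose (3.23, adjusted p = 8e-07) and the cytosolic Ckb fell (-1.51, adjusted p = 4.7e-05). Of 13 glutathione genes, 2 were higher and 2 lower in ESCs, and 4 higher and 4 lower in NSCs, where Nqo1 had the largest change (1.39, adjusted p = 0.00025), before Gss, which completes glutathione (0.66, adjusted p = 0.0002). In ESCs Ggt1, which breaks glutathione down, rose (1.49, adjusted p = 0.0008), and the reductase Gsr fell (-0.64, adjusted p = 7.5e-05), at -0.22 without the median of its chromosome 8 (adjusted p = 0.071). Of 16 mitochondrial and lysosomal amino acid carriers outside these families, limma called 0 in ESCs (3 at an unadjusted p under 0.05, 0 by edgeR and 2 by DESeq2), and in NSCs 4 were higher and 3 lower, the last including the aromatic amino acid carrier Slc16a10 (-2.78, adjusted p = 3.1e-07) and the lysosomal Mfsd12 (-0.95, adjusted p = 0.00019).

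Promoter contacts were counted in 1 NSC library per genotype, so no test was made. A loop in the authors' lists joins a pair of fragments and has a score of at least 5. Loops were assigned by the promoter window for 32 members and by either annotated gene end for the other 13. Members had 156 loops in WT and 150 in TKO, out of 51990 and 51122 in all, and 179 and 187 when a loop within 1 kb of either gene end was counted for every member, which turns the direction. There were 16 members with fewer loops in TKO, 14 with more and 15 with equal numbers. Slc36a1 had 7 loops in WT and 17 in TKO, 6 of them shared. It lies on chromosome 11, where expression was shifted. Slc6a6 had 17 and 12, and Slc7a5 had 13 in each. Slc7a11 had 7 and 0 and Slc38a9 had 9 and 3 by their RefSeq start windows, but 0 and 0, and 1 and 1, when loops within 1 kb of either annotated end of the gene were counted. Of the carriers with changes of at least 1 in TKO NSCs, Slc7a8 had 3 and 2 loops, Slc7a7 3 and 2, Slc6a4 6 and 2, Slc38a3 10 and 9, Slc7a4 2 and 0, and Slc43a3 0 and 1, while Slc7a3, Slc6a17 and Slc38a5 had 0 in each. By gene ends Slc6a17 had 4 and 2. No loop joined the promoters of a pair of members.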

How the data were processed

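Per the submitters' processing notes, the build was mm10, and the tools named, in no stated order, are DESeq2 1.40.2, featureCounts, STAR 2.7.3a and Trim Galore 0.6.5. The deposited RNA tables hold a signal: counts per gene divided by size factors by the authors, in 1 table per cell type. Values were whole multiples of 1 step per library, and 100% gave whole reads within a tolerance of 1e-06, 41.0 M to 49.1 M per library, of which 75.2% to 82.7% of low counts were even, as when both mates are counted. Not analysed here were 4 bisulfite and 20 CUT&Tag samples. For loops, the deposited score per loop is the authors' own value, and no source used here names the caller.

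Members and gene lists were chosen with earlier results of these data known. TKO and WT were compared with limma 3.58.1 (trend, two-sided) on log2(value + 1). Genes averaging 10 or more entered, a filter that all members passed in both tables, with Benjamini-Hochberg adjustment over all genes and a threshold of 0.05. The difference between cell types was an interaction contrast over 15369 genes. NSCs against ESCs used recovered reads scaled together by the median of ratios. The line codes tie NSC to ESC samples, although deviations of same-coded samples correlated by only -0.03 to 0.04, and the fit with line as a block changed none of the 36 members' calls (0 in each contrast). The fits were tested on simulated data. On the recovered reads edgeR called 1220 higher and 1164 lower genes in ESCs and 3303 and 3266 in NSCs. Alternatives were other pseudocounts, filters and scalings, edgeR 4.0.16, DESeq2 1.42.0, a robust fit, chromosome centring (chromosome 6 split where its genes step most, at 91978827) and omission of each library. Counts cover all members, of which 1 is not reported here by name; values per line are given for called changes of at least 1, called differences of at least 1 and the 6 highest members per cell type, cell type contrasts of at least 3 are named, other members appear by role, and each gene list is given by counts and its 2 largest called changes. Python 3.11.15, scipy 1.17.1, pandas 2.3.3, matplotlib 3.10.9 and R 4.3.3 were used.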

Additional observations from a re-analysis of the deposited data

Results flagged for a closer look

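The difference between TKO and WT lines was not the same in NSCs and ESCs, by the limma interaction test, for the 14 carriers given here. On the log2 scale, as the NSC effect minus the ESC effect, the negative differences were -4.86 for Slc6a13, -2.69 for Slc6a17, -2.28 for Slc7a8, -0.70 for Slc6a8 and -0.43 for Slc6a6. The positive ones were 0.32 for Slc38a1, 0.42 for Slc7a5, 0.66 for Slc7a6, 0.84 for Slc38a4, 0.88 for Slc36a1, 1.28 for Slc38a7, 1.41 for Slc7a3, 1.53 for Slc7a7 and 3.94 for Slc43a3. With chromosome medians removed, Slc7a5 and Slc7a6 on chromosome 8 were no longer called, and Slc38a7 on the same chromosome stood at 0.89. Leaving out single libraries ended the calls of Slc6a13, Slc6a6, Slc7a5, Slc38a1 and Slc36a1.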

How the results depend on the processing

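For single carriers with large changes, 463 recomputed values of 28 results gave 456 on the same side of the threshold with the same direction. Another 7 lost the call and 0 reversed. The 7 belong to Slc38a3, Slc7a4 and Slc6a13 and arose when a library was left out. Settings that gave a gene no adjusted p, or whose filter removed it, were not counted. The transmitter uptake call between cell types that DESeq2 did not make is not among the 7. Counts moved more. The 3 higher members in ESCs became 6 with a pseudocount of 5, 5 with DESeq2 and 6 with all 10 libraries in 1 fit, which gave 11 higher and 7 lower members in NSCs. With 1 library left out, higher members in ESCs ranged from 2 to 4 and lower ones, 5 in the full data, from 2 to 5. Those in NSCs, 14 and 9, ranged from 7 to 13 and from 7 to 10. The cause of these moves was not tested. Equal totals gave 19 in place of 12 members higher in TKO NSCs than in TKO ESCs. Of the loops, 12 in WT and 13 in TKO had a score of at least 10. The replicate numbers of TKO and WT name different lines, and as a replicate block they gave 5 higher and 3 lower members in ESCs, a change of 4 calls. In NSCs the block also changed 4 calls. Same-numbered libraries correlated by -0.07 to 0.05.

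Depth limits Slc6a13, Slc38a5, Slc6a4 and the other members with under 100 reads, and with 2 TKO lines a missed threshold does not show that a carrier was unchanged.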
